A study of Mus musculus with 6 samples.

Results

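The 10 genes described here carry iron into the cell, store it, let it out or sense it. They were taken by gene symbol, and all 10 were among the 24346 gene symbols for which RNA sequencing values were deposited. RNA sequencing compared CT26.mMR1 cells, the mouse colorectal tumor line CT26 transduced with a retrovirus carrying mouse MR1, with M8, a line derived from them. MR1 is the surface molecule that presents small metabolites to mucosal-associated invariant T cells. M8 was obtained by treating CT26.mMR1 cells with the mutagen N-ethyl-N-nitrosourea and cloning by limiting dilution, so that it is a single clone and carries the same MR1 transgene as its parent. The study's methods describe a screen of the clones for surface MR1 by flow cytometry. Its results describe a screen of the mutants with a reporter line bearing a receptor of such T cells. M8 was among those that raised the reporter signal, and was then singled out for its higher surface MR1. The titles of the samples of both lines carry the tag cl9, which the labels do not explain. Each line gave 3 RNA samples, called replicates 1 to 3. The study names its replicates biological, but the labels do not state that they came from separate cultures, so the p-values measure the spread between these samples only.

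Cells take up most of their iron as transferrin bound to the transferrin receptor. In endosomes the ferric iron is reduced by a metalloreductase and leaves through a divalent metal transporter. Iron that is not used is kept inside ferritin, a shell of heavy and light chains, and surplus iron can leave through ferroportin. The balance is held after transcription by the iron regulatory proteins, which bind hairpins called iron-responsive elements when iron is scarce. Bound to hairpins near the start of a transcript they block its translation, and bound to hairpins after the coding sequence of the transferrin receptor they protect the transcript from decay.

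The hairpins are shown because they are the sites through which the iron regulatory proteins are known to act on some of the members. A search for the letters CNNNNNCAGTGN in the untranslated regions (UTRs) of protein-coding transcripts, on the transcript strand only, required all 5 base pairs of the upper stem and at least 3 of the next 5 pairs below it, G-T pairs included. It found 7 such elements in 4 members, namely Tfrc, Fth1, Ftl1 and Slc40a1. Of 9913 tested genes with a protein-coding transcript, 29 (0.293%) held at least 1. The sequences come from the GENCODE M21 transcripts on GRCm38, which is the mm10 build, and are those of the reference mouse and not of CT26 cells. Each is 30 bases, 5′ to 3′ with T for U, and the capitals mark the bulged C below the upper stem and the 6 bases of the loop.

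The elements of both ferritin chains lie in the 5′ UTR, that of Fth1 at chr19:9982731-9982760 on the plus strand and that of Ftl1 at chr7:45459779-45459808 on the minus strand. They are the same at 27 of 30 positions.

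Fth1: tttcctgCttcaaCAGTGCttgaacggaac

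Ftl1: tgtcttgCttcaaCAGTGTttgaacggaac

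The element of Slc40a1, in its 5′ UTR at chr1:45925465-45925494 on the minus strand, has a different stem around a loop that matches that of Ftl1 at all 6 bases.

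Slc40a1: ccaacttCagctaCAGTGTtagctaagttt

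The 4 elements of Tfrc lie together in its 3′ UTR on the plus strand, within 521 bases, at chr16:32631218-32631247, chr16:32631597-32631626, chr16:32631662-32631691 and chr16:32631709-32631738.

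Tfrc element 1: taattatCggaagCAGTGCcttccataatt

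Tfrc element 2: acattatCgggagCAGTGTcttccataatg

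Tfrc element 3: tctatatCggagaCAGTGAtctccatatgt

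Tfrc element 4: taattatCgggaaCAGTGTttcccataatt

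An element found in this way is a description of the sequence and says nothing about binding in these cells. The search did not allow other loops or bulges, and it found no element in Slc11a2, some transcripts of which are known to carry one after the coding sequence. The values are per gene, so transcripts of a gene with and without an element were counted together.

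The values are FPKM, fragments scaled for transcript length and for the mapped fragments of the sample, and summed to between 593630 and 630260 per sample. From the step between the values of weakly expressed genes, the depth relative to parental replicate 1 was 0.949 and 1.07 for parental replicates 2 and 3, and 0.875, 0.772 and 0.845 for M8 replicates 1 to 3. Of the markers of colon epithelium, Epcam, Cdh1 and Cdx2 were listed at 0 in all 6 samples, and only Krt18 and Krt20 of 7 markers had a mean of at least 1 FPKM. Krt20 was lower in M8 (log2 fold change -0.50, limma adjusted p = 0.00438). All 5 fibroblast markers reached that mean, with a sum, mostly of Col1a2, of 605 to 638 FPKM in parental cells and 585 to 616 FPKM in M8. Among them Pdgfra (-0.43, limma adjusted p = 0.00903) and Dcn (-0.38, 0.0245) were lower and Pdgfrb (0.25, 0.00787) higher in M8. No marker of lymphocytes, red cell precursors or endothelium reached it. The defining macrophage markers Adgre1 and Csf1r were listed at 0 throughout, and the macrophage list, of which only Cd68 reached a mean of 1 FPKM, summed to 3.89 to 5.03 FPKM in parental cells and 1.496 to 2.57 FPKM in M8. M8 replicate 1 stood apart in transcripts typical of liver. Its 4 hepatocyte markers summed to 11.3 FPKM against at most 2.40 FPKM in any other sample, with Alb at 4.31 FPKM, and values without it are given for the members called. The part of these marker differences in the results was not tested, and in bulk RNA fewer cells of a type and less RNA per cell cannot be told apart.

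The lines were compared by fitting limma to log2(FPKM + 1), a scale that understates the change of weak genes, in the 10597 genes with a mean of at least 1 FPKM, and a gene was called at a Benjamini-Hochberg adjusted p below 0.1. Of the members, 8 were tested and 2, Steap3 and Slc40a1, fell below that level. M8 expressed more of the transferrin receptor Tfrc, by 52.7%, and slightly more of the iron sensor Aco1, the zinc and iron importer Slc39a14 and the ferritin heavy chain Fth1. It expressed less Ncoa4, the receptor that delivers ferritin to lysosomes. Slc11a2, Ftl1 and Ireb2 were not called. That makes 4 members higher and 1 lower, whereas 21.2% of all genes tested were called higher and 16.5% lower (2250 and 1745 genes). Under other scalings the balance of all genes turned, to 1658 higher and 2209 lower with TPM and to 1470 higher and 2769 lower with upper-quartile scaling. Of the members, 3 were higher with TPM and 2 with upper-quartile scaling or without M8 replicate 2, and 1 was lower in each case. The median log2 fold change of the 8 members was 0.087, beside 0.0069 over all genes tested.

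**Figure D1:**
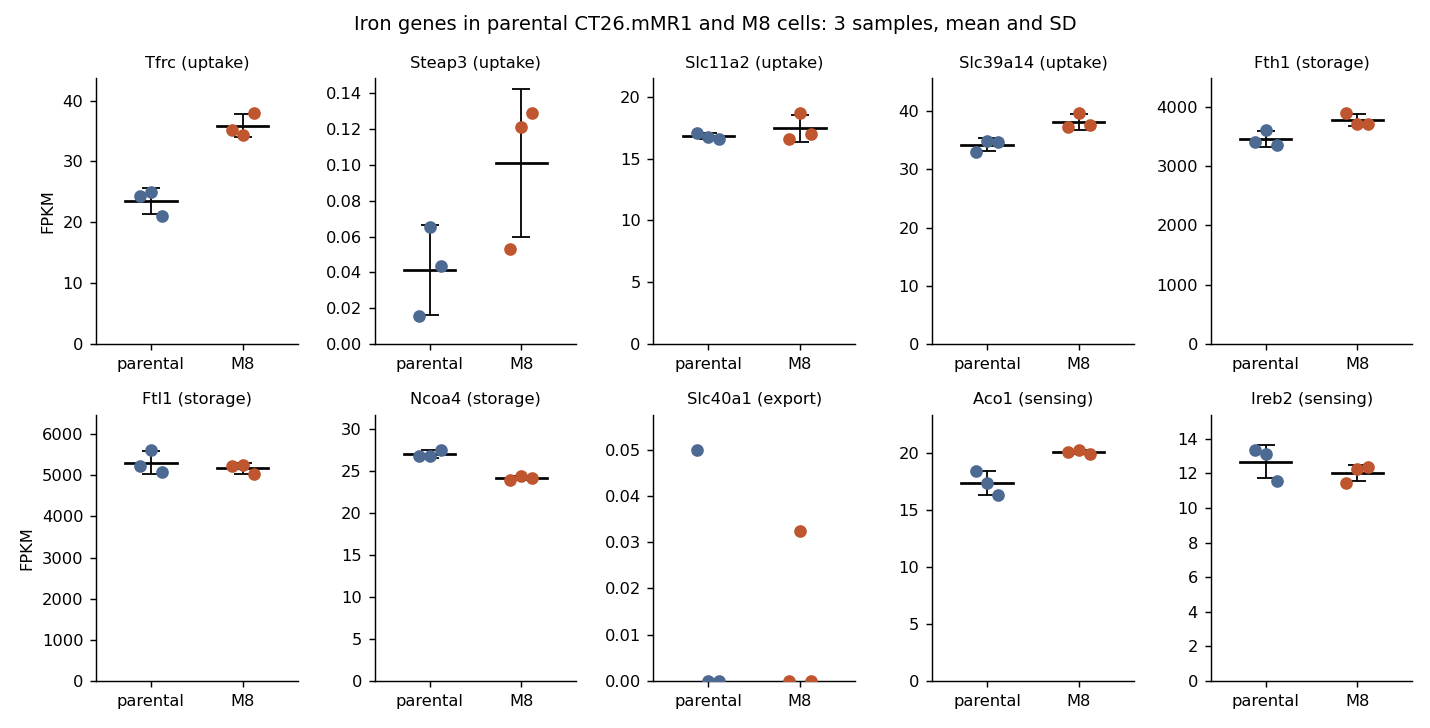
FPKM of the 10 members (vertical axes, linear, each from 0) in parental CT26.mMR1 and M8 cells (horizontal axes), with 1 point for each of 3 samples, a bar at the mean and whiskers of 1 SD (Slc40a1, listed at 0 in some samples, without either). The points of Tfrc, Slc39a14, Fth1 and Aco1 lie higher in M8 and those of Ncoa4 lower, with no overlap, and the other 5 genes overlap between the lines.

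Among the genes of uptake, Tfrc encodes transferrin receptor 1, which binds iron-loaded transferrin at the cell surface and carries it into endosomes. Its level was 24.4, 24.9 and 21.1 FPKM in parental replicates 1 to 3 and 35.2, 34.3 and 37.9 FPKM in M8 replicates 1 to 3. Every M8 sample was above every parental sample, the lowest M8 value of 34.3 FPKM standing against a highest parental value of 24.9 FPKM. The means were 23.5 ± 2.104 FPKM and 35.8 ± 1.87 FPKM (SD, n = 3 each). On the log2 scale this was a change of 0.59 (standard error 0.068, 95% interval 0.44 to 0.74, limma adjusted p = 0.000597). Only 130 of the 10597 genes tested (1.23%) had a larger change in either direction. Without M8 replicate 1 the log2 fold change was 0.60 (limma adjusted p = 0.00582). Tfrc, whose transcript holds the 4 hairpins after its coding sequence, lies on chromosome 16 from 32608920 to 32632794.

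Slc39a14 encodes ZIP14, which imports zinc, manganese and iron that is not bound to transferrin. It was at 32.9, 34.9 and 34.7 FPKM in parental cells and at 37.2, 39.7 and 37.5 FPKM in M8. The lines did not overlap, but the gap between them was small. The log2 fold change was 0.15 (standard error 0.046, 95% interval 0.050 to 0.26, limma adjusted p = 0.0341). Without M8 replicate 1 it was 0.17 (limma adjusted p = 0.0658). The call was lost without M8 replicate 2 (log2 fold change 0.12, limma adjusted p = 0.126) and with quantile normalization or upper-quartile scaling.

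Slc11a2 encodes DMT1, the transporter through which ferrous iron leaves the endosome. The parental values were 17.1, 16.7 and 16.6 FPKM and the M8 values 16.6, 18.7 and 16.99 FPKM. M8 replicates 1 and 3 lay within the parental range and replicate 2 above it. A gene on the opposite strand, Gm5475, overlaps Slc11a2, and whether strand was used in the counting is not given in the sources used here. The log2 fold change was 0.049 with a 95% interval from -0.072 to 0.17 (limma adjusted p = 0.525). Steap3, the endosomal metalloreductase known from red cell precursors, was nearly absent, at 0.016, 0.066 and 0.044 FPKM in parental cells and 0.053, 0.12 and 0.13 FPKM in M8. Such values rest on few reads, and the lines overlapped. Among its relatives, Steap1 stood at 232 ± 7.30 FPKM and Steap2 at 47.3 ± 2.05 FPKM in parental cells (SD, n = 3 each), while Steap4 was weak (0.32 FPKM). Steap2, named after its values were seen, was at 43.3 FPKM in M8 and was not called (log2 fold change -0.12, limma adjusted p = 0.103).

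The ferritin chains were by far the most abundant members. Ftl1, the light chain, which helps the iron core to form, ranked between place 3 and place 6 of all genes in every sample, and Fth1, the heavy chain, which oxidizes ferrous iron, between place 9 and place 19. Together they made up 1.35% to 1.501% of the summed FPKM in parental cells and 1.40% to 1.45% in M8. Fth1 was at 3411, 3607 and 3353 FPKM in parental cells and at 3891, 3708 and 3712 FPKM in M8. All 3 M8 values were above the parental ones, the lowest of them close to the highest parental value. The log2 fold change was 0.13 (standard error 0.047, 95% interval 0.020 to 0.23, limma adjusted p = 0.0743), a rise of 9.06%. This call did not hold with the replicate number as a block (limma adjusted p = 0.143), with no filter on low values (0.259), with eBayes without a trend (0.101), with TPM (0.129) or upper-quartile scaling (0.283), or at a threshold of 0.05. It was also lost without M8 replicate 1 (0.271), 2 (0.162) or 3 (0.147) or without parental replicate 3 (0.124), where the log2 fold change stayed between 0.10 and 0.14.

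Ftl1 had 5215, 5620 and 5090 FPKM in parental cells and 5220, 5255 and 5021 FPKM in M8. The M8 values lay mostly within the parental range, and the difference was not called (log2 fold change -0.038, 95% interval -0.15 to 0.077, limma adjusted p = 0.606). The ratio of heavy to light chain compares both genes within a sample, so a factor common to a whole sample cancels. It was 0.654, 0.642 and 0.659 in parental replicates 1 to 3 and 0.745, 0.706 and 0.739 in M8 replicates 1 to 3, without overlap. Processed pseudogenes named after both ferritin genes exist (Fth-ps2, Fth-ps3, Ftl1-ps2 and Ftl2-ps) but are not listed in the files used here. How reads shared with such copies were assigned is not given in the sources used here, so the values of Fth1 and Ftl1 may be less certain, which was not tested. A microRNA gene and a gene model of uncertain status also overlap Ftl1.

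Ncoa4 encodes the receptor that binds ferritin heavy chains and takes ferritin to the lysosome, where its iron is released. It was at 26.8, 26.8 and 27.6 FPKM in parental cells and at 23.9, 24.5 and 24.2 FPKM in M8. The replicates of each line were close together, and all M8 values were below all parental ones. The mean fell by 10.5%, from 27.0 ± 0.441 to 24.2 ± 0.262 FPKM (SD, n = 3 each). The log2 fold change was -0.15 (standard error 0.041, 95% interval -0.25 to -0.061, limma adjusted p = 0.0223). Without M8 replicate 1 it was still called (log2 fold change -0.15, limma adjusted p = 0.0786).

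Slc40a1 encodes ferroportin, the known exporter of iron from cells, and was listed at 0 in parental replicates 2 and 3 and in M8 replicates 1 and 3. It stood at 0.050 FPKM in parental replicate 1 and at 0.032 FPKM in M8 replicate 2. A level this low cannot be compared between the lines at this depth.

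Among the sensors, Aco1 encodes cytosolic aconitase, which becomes iron regulatory protein 1 when it lacks its iron-sulfur cluster. It was at 18.4, 17.3 and 16.3 FPKM in parental cells and at 20.1, 20.3 and 19.9 FPKM in M8. The M8 samples were nearly equal and all above the parental ones, which were more spread. The log2 fold change was 0.20 (standard error 0.053, 95% interval 0.082 to 0.32, limma adjusted p = 0.0205), and without M8 replicate 1 it was 0.20 as well (limma adjusted p = 0.0695). Ireb2, which encodes iron regulatory protein 2, a sensor controlled by its own degradation, was at 13.4, 13.1 and 11.6 FPKM in parental cells and 11.5, 12.2 and 12.3 FPKM in M8. These ranges overlapped and the difference was not called (log2 fold change -0.071, 95% interval -0.21 to 0.073, limma adjusted p = 0.435).

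**Figure D2:**
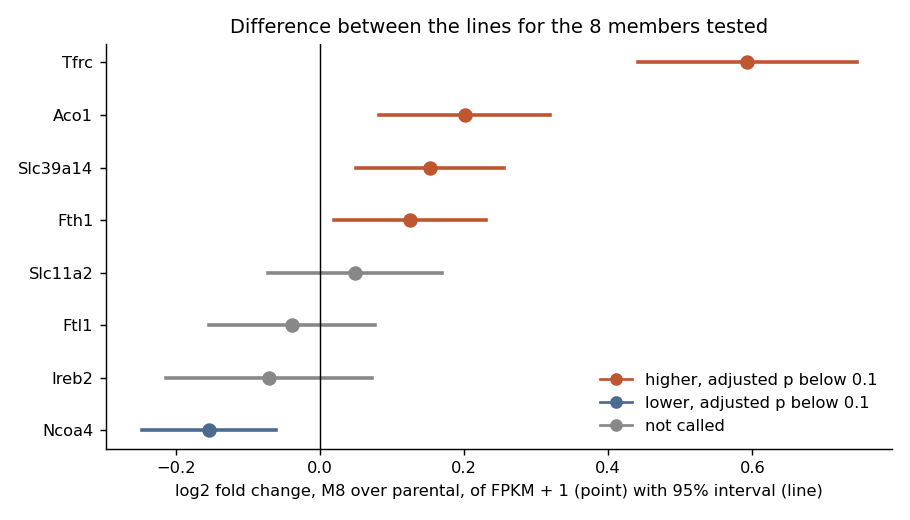
Log2 fold change of FPKM + 1 between M8 and parental cells (horizontal axis; points, with the 95% interval from limma as lines) for the 8 members tested (vertical axis). Tfrc at 0.59 stands clear of the other members, which lie between -0.15 and 0.20, and the intervals of Slc11a2, Ftl1 and Ireb2 include 0.

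In 5 of the 8 members tested the samples of the lines did not overlap, and neither did they in 45.2% of all genes tested. Each of these 5 members had p = 0.1 by exact permutation of the samples (two-sided, on the means), which is the smallest p that 3 samples against 3 allow. FPKM is scaled for length, so levels can be set beside each other. In parental cells the order of mean FPKM was Ftl1, Fth1, Slc39a14, Ncoa4, Tfrc, Aco1, Slc11a2, Ireb2, Steap3 and Slc40a1, and in that order only Aco1 and Slc11a2, and Steap3 and Slc40a1, overlapped as neighbours. In M8 Tfrc stood above Ncoa4 and next to Slc39a14, with which it overlapped.

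Set against storage, Tfrc was also higher relative to Fth1. For every 1000 FPKM of Fth1 there were 7.15, 6.91 and 6.28 FPKM of Tfrc in parental replicates 1 to 3 and 9.06, 9.26 and 10.2 FPKM in M8 replicates 1 to 3. The ratio of Aco1 to Ireb2 was 1.38, 1.32 and 1.41 in parental cells and 1.75, 1.66 and 1.61 in M8. All 3 ratios were higher in every M8 sample than in any parental sample. The first gene of each ratio was itself called higher, so this is not independent of the results for single genes. Of single genes tested, 45.2% did not overlap between the lines, and the share among other pairs of genes was not computed. On the log2 scale the differences were 0.16 for Fth1 to Ftl1, 0.49 for Tfrc to Fth1 and 0.29 for Aco1 to Ireb2, and these ratios of single members were given no test. Without M8 replicate 1 they were 0.15, 0.52 and 0.25.

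**Figure D3:**
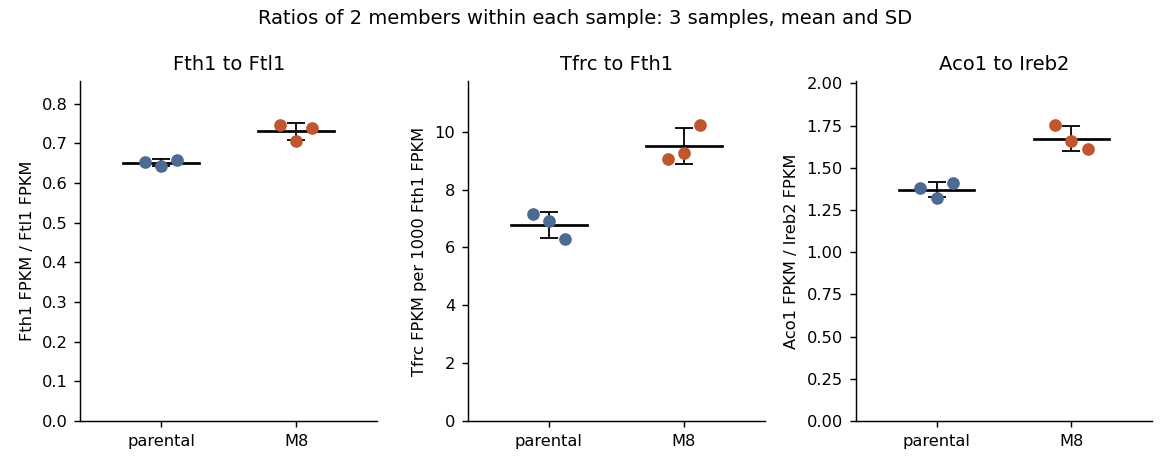
Ratio of the FPKM of 2 members within each sample (vertical axes, from 0), Fth1 to Ftl1, Tfrc per 1000 of Fth1 and Aco1 to Ireb2, in parental and M8 cells (horizontal axes), with 1 point per sample, the mean and 1 SD. In each panel the 3 M8 points lie above the 3 parental points, with means of 0.730 and 0.652, of 9.51 and 6.78, and of 1.67 and 1.37.

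The genes whose 6 values followed Tfrc most closely on the log2(FPKM + 1) scale were Iigp1, Gm2518 and Ccnb1. Likeness was the root mean square difference over the 6 samples of log2(FPKM + 1), each gene set to its parental mean, and it was 0.035, 0.036 and 0.057. Ccnb1, the mitotic cyclin B1, rose from 40.0 ± 3.16 to 62.7 ± 2.28 FPKM, and Iigp1, an interferon-inducible GTPase, from 3.37 ± 0.509 to 5.65 ± 0.204 FPKM (SD, n = 3 each). Gm2518, a predicted gene, was weaker, at 1.57 and 2.82 FPKM on average. That scale understates the change of weak genes, so the likeness of Iigp1 and Gm2518 to Tfrc depends on it. With 0.1 in place of 1 added to FPKM, their log2 fold changes were 0.74 and 0.82. On that scale Tfrc was at 0.61 and Ccnb1 at 0.65.

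A wider list of 72 other iron and heme genes was read from the same fit. The files held 71 of them, 13 of which were below the filter and 58 tested. Of the 58, 13 were higher in M8 (22.4%) and 9 were lower (15.5%), beside 21.2% and 16.5% of all genes tested, so the share of calls was near the background. The balance of the list turned as well, to 9 higher and 13 lower with TPM and to 8 higher and 19 lower with upper-quartile scaling. The median log2 fold change was 0.030. Of the 22 calls, 15 held under every alternative setting, each library left out in turn included. Without M8 replicate 1, 9 genes of the list were called higher and 7 lower.

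In uptake and trafficking, 1 of 6 tested genes rose and 1 fell. Steap1, a six-transmembrane relative of Steap3, was at 272 ± 7.34 FPKM in M8 (log2 fold change 0.23, limma adjusted p = 0.00385). Lcn2, lipocalin 2, which binds iron-loaded siderophores, fell from 46.2 ± 9.83 to 13.8 ± 2.73 FPKM (log2 fold change -1.67, limma adjusted p = 0.000206). The transferrin gene Trf and the hepcidin gene Hamp, chosen after their values were seen, were listed at 0.87 and 1.18 FPKM in M8 replicate 1, the sample with the liver transcripts, and at no more than 0.039 FPKM in any other. In storage, both chaperones that hand iron to ferritin rose, Pcbp1 from 205 ± 0.932 to 241 ± 7.25 FPKM and Pcbp2 from 369 ± 32.8 to 444 ± 23.8 FPKM (SD, n = 3 each; log2 fold changes 0.23 and 0.27, limma adjusted p = 0.00255 and 0.0160). Of 3 export and hepcidin genes tested, Cp, the plasma ferroxidase ceruloplasmin, rose from 7.01 ± 0.339 to 8.99 ± 0.231 FPKM (log2 fold change 0.32, limma adjusted p = 0.00438). Cp is also made by liver, and without M8 replicate 1, the sample with the liver transcripts, its log2 fold change was 0.33 (limma adjusted p = 0.0197). Pcbp2 without that sample had a log2 fold change of 0.22 (limma adjusted p = 0.0763).

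Of 5 genes of sensing and of Tfrc mRNA decay, none rose and 2 fell. Fbxl5, the iron-binding ubiquitin ligase subunit that marks iron regulatory protein 2 for degradation, fell from 22.7 ± 0.950 to 19.8 ± 0.567 FPKM (log2 fold change -0.18, limma adjusted p = 0.0216). Zfp36, tristetraprolin, which destabilizes many transcripts, fell from 16.3 ± 0.838 to 12.5 ± 0.958 FPKM (log2 fold change -0.36, limma adjusted p = 0.00389). Zc3h12a, an endonuclease that can cut Tfrc mRNA and was chosen after its values were seen, was at 3.29, 3.38 and 3.10 FPKM in parental cells and 2.93, 2.73 and 2.60 FPKM in M8 and was not called. Rc3h1 and Hif1a, of the same role and not called either, lay slightly higher in M8, with overlapping lines. Mean levels of Rc3h1 were 4.62 and 4.99 FPKM (log2 fold change 0.096, limma adjusted p = 0.346). Those of Hif1a were 37.9 and 39.1 FPKM (0.044, limma adjusted p = 0.472).

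In heme synthesis, 2 of 8 genes rose and 1 fell. Cpox, coproporphyrinogen oxidase, rose by 0.18 on the log2 scale (limma adjusted p = 0.0118), and Uros, uroporphyrinogen III synthase, fell by 0.30 (limma adjusted p = 0.0726). The call of Uros, whose lines overlapped, was lost without parental replicate 1 (limma adjusted p = 0.152) or 2 (0.199) or M8 replicate 1 (0.245) or 3 (0.177). It was also lost with no filter on low values (0.182) or with eBayes without a trend (0.102). In heme transport and breakdown, 3 of 5 genes fell and none rose. Slc48a1, a transporter that brings heme out of endosomes, fell from 111 ± 3.73 to 94.3 ± 2.81 FPKM (log2 fold change -0.23, limma adjusted p = 0.00464). Blvra, biliverdin reductase A, fell by 0.21 (limma adjusted p = 0.0329) and Hmox2, the constitutive heme oxygenase, by 0.20 (limma adjusted p = 0.0665), the latter with overlapping lines. Without parental replicate 2 or 3 the adjusted p of Hmox2 was 0.165 or 0.168, and without M8 replicate 1 or 3 it was 0.224 or 0.122. With no filter on low values it was 0.148, and with eBayes without a trend 0.103. Hmox1, the inducible heme oxygenase, chosen after its values were seen, was at 60.3 to 67.9 FPKM in parental cells and 65.1 to 67.4 FPKM in M8.

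In mitochondria, where iron is built into heme and iron-sulfur clusters, 4 of 17 genes rose and 2 fell. Glrx5, a glutaredoxin that passes on iron-sulfur clusters, rose from 44.1 ± 2.85 to 61.3 ± 4.02 FPKM (log2 fold change 0.47 with a standard error of 0.061, limma adjusted p = 0.00102). Slc25a37, mitoferrin 1, which imports iron into mitochondria, fell from 34.9 ± 1.34 to 27.3 ± 0.284 FPKM (log2 fold change -0.34 with a standard error of 0.044, limma adjusted p = 0.000979). Iba57, a late factor of cluster assembly, was weak, at 1.34 ± 0.0719 and 1.81 ± 0.144 FPKM (limma adjusted p = 0.0677), and its call was lost without any one library other than M8 replicate 3 (0.105 to 0.170). It was also lost with TPM (0.102), upper-quartile scaling (0.103) or the replicate block (0.106). Slc25a28, mitoferrin 2, named after its values were seen, was called at a log2 fold change of 0.13 (limma adjusted p = 0.0615). That call was lost without any one library other than parental replicate 1 (0.127 to 0.157), and with TPM (0.239), quantile normalization (0.224) or upper-quartile scaling (0.295). Without M8 replicate 1, neither Iba57 nor Slc25a28 was called. In cytosolic cluster assembly, 2 of 9 genes rose and none fell. The scaffold genes Nubp1 and Nubp2 had log2 fold changes of 0.41 (limma adjusted p = 0.000561) and 0.26 (limma adjusted p = 0.0683). The call of Nubp2 was lost without parental replicate 3, where its log2 fold change was 0.14 (limma adjusted p = 0.114), or without M8 replicate 1 (0.201), 2 (0.138) or 3 (0.109). It was also lost with TPM (0.135), quantile normalization (0.107) or upper-quartile scaling (0.143), with no filter on low values (0.171) or with eBayes without a trend (0.104).

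**Figure D4:**
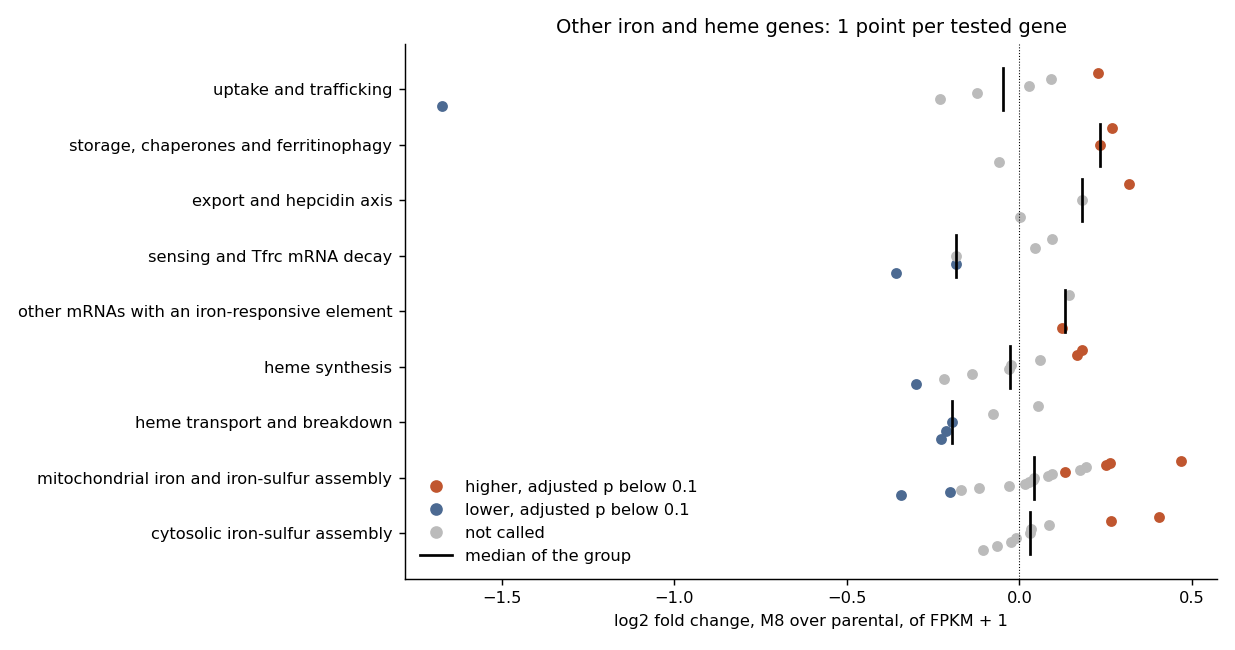
Log2 fold change of FPKM + 1 between M8 and parental cells (horizontal axis) for the 58 tested genes of the wider iron and heme list, 1 point per gene, grouped by role (vertical axis), with the median of each group as a bar and called genes in color. Most points lie near 0, Lcn2 at -1.67 is the point far to the left, and Glrx5 at 0.47 is the highest.

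The plot of the members under 17 alternative settings sets their size against the effect of the processing. Tfrc, Ncoa4 and Aco1 were called in all 17, Slc39a14 in 14 and Fth1 in 7. Slc11a2, Ftl1 and Ireb2 were called in none of them.

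**Figure D5:**
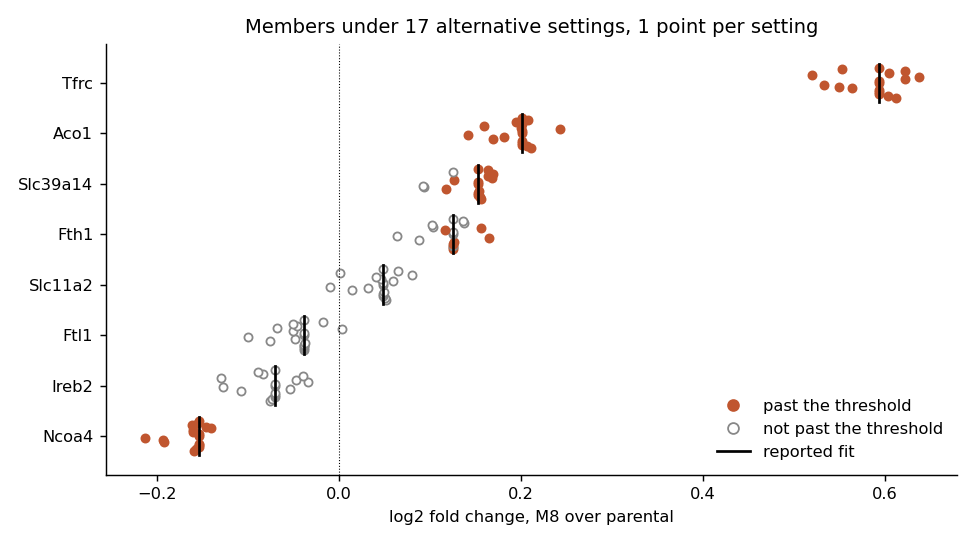
Log2 fold change between M8 and parental cells (horizontal axis) of the 8 members tested (vertical axis) under 17 alternative settings, 1 point per setting, filled where past the threshold, with a bar at the reported value. The points of Tfrc lie between 0.52 and 0.64, and those of Fth1 between 0.064 and 0.17 with 7 of 17 filled.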

How the data were processed

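Total RNA of 3 parental CT26.mMR1 and 3 M8 samples was made into stranded mRNA libraries, read as 101-base single reads and mapped to mm10 with TopHat (TopHat2 2.1.1 with Bowtie2 2.2.8 in the submitters' processing notes). FPKM values were deposited by the authors as 1 table per sample, calculated with Cufflinks (Cuffdiff 2.2.1 in those notes). The gene annotation, filters and handling of multiply mapped reads are not given in the sources used here. The authors' own comparison used read counts, which were not analysed here, so FPKM was tested on a log scale.

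Values were fitted with limma 3.58.1 in R 4.3.3 (lmFit, eBayes with a trend) as log2(FPKM + 1), keeping genes whose mean FPKM was 1 or more, and p-values were adjusted over all of them by the Benjamini-Hochberg method. An adjusted p below 0.1 follows the study's false discovery rate. FPKM values carry no counting interval. Iron-responsive elements were searched in GENCODE M21 transcripts. The members, the wider list and its naming rule (all members, and up to 3 called genes with the largest change in each role, and the 3 genes most like the member that changed most) were chosen with earlier results of these data known. Some genes that the rule names are not reported here. Alternatives changed the pseudocount (0.1, 0.5), the filter (none, or a mean of 5), the scaling (median, TPM, quantile, upper quartile), the eBayes trend and the threshold (0.05), added a replicate block or left out each sample in turn.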

Additional observations from a re-analysis of the deposited data

How the results depend on the processing

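Of 136 values of the 8 members under 17 alternatives, 123 stayed on the reported side of the threshold, and no called member changed sign. The others concern Fth1 and Slc39a14. Upper-quartile scaling changed the counts most, to 1470 genes higher and 2769 lower (reported 2250 and 1745), 2 members higher (reported 4), and 8 and 19 genes of the wider list (reported 13 and 9). TPM gave 1658 genes higher and 2209 lower. With each replicate left out, 2 to 4 members were higher (2 without M8 replicate 2) and 1142 to 1681 of all genes were lower (1142 without M8 replicate 1). Quantile normalization moved the log2 ratio of Fth1 to Ftl1 from 0.16 to 0.22. Same-numbered samples did not deviate together (r of 0.10, -0.11 and -0.033 for replicates 1 to 3), so the numbers were not taken as pairs, and the replicate block gave 3 members higher and 1 lower. Slc11a2 under upper-quartile scaling (-0.0095) and Ftl1 without parental replicate 2 (0.0034), neither called, took the opposite sign. M8 is 1 clone, so effects of its cloning and of mutagenesis cannot be told apart, and whether the parental cells were themselves a clone is not stated in the labels.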
